A study of Homo sapiens with 6 samples.

Results

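DNA replication and the G1/S transition are carried here by 54 genes, chosen by name for their known roles in origin licensing, origin firing, the replication fork, nucleotide supply and E2F control. The choice used no threshold on measured values, but it and the choice of the other lists were made with earlier results of these data known. All 54 were among the 19775 genes measured. Their RNA was compared between PC9 and PC9/gef, both lung adenocarcinoma cell lines of human origin. PC9 is the parental line and is sensitive to gefitinib, an inhibitor of the epidermal growth factor receptor (EGFR) kinase. PC9/gef is the derived line with acquired resistance, selected from PC9 by long exposure to rising doses of the drug. Both lines grew in the same serum-containing RPMI medium, and 3 samples of each line were hybridised, 1 array per sample, on Affymetrix Human Genome U133 Plus 2.0 arrays. The study compared the lines to look for genes tied to the resistance. The labels call the samples biological replicates without naming separate cultures, so the p-values measure the spread between these samples only. PC9/gef is a single selected line, and a difference between the lines cannot be told apart from a difference between the cells that survived selection and the rest. Neither the labels nor the methods of the array experiment say whether gefitinib was in the medium at harvest.

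Each round of DNA synthesis starts with licensing. In G1 the origin recognition complex (ORC), CDC6 and CDT1 load the MCM2 to MCM7 helicase onto origins, and geminin (GMNN) holds CDT1 back once S phase has begun. The kinase CDC7, together with CDC45, the GINS proteins and MCM10, then turns the loaded helicase into a moving fork, where polymerases, the PCNA clamp and its RFC loader, FEN1 and DNA ligase 1 copy the strands. Many of these genes are transcribed together at the G1/S border by E2F factors. The retinoblastoma protein restrains these factors, and CDK2, whose activity cyclin E and CDC25A raise, helps to lift that restraint.

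The E2F sequence is a feature that many of these genes are known to share, so the promoters of 5 members are shown first: 3 helicase subunits with E2F sequences, CDC25A with 1, and ORC5 with none in the window. Each runs from 250 bases before the transcription start to 50 bases after it, so its last 50 bases lie in the first exon. They are taken from RefSeq on GRCh38.p14. MCM2 lies at chr3:127598161-127598460 (plus strand) and MCM6 at chr2:135876394-135876693 (minus strand). MCM7 lies at chr7:100101348-100101647 (minus strand), the first of its 3 listed starts found to hold such a sequence. CDC25A lies at chr3:48188368-48188667 (minus strand) and ORC5 at chr7:104207964-104208263 (minus strand). Capitals mark the E2F letters searched, TTTCCCGC, TTTCGCGC, TTTGCCGC and TTTGGCGC, read on both strands.
MCM2: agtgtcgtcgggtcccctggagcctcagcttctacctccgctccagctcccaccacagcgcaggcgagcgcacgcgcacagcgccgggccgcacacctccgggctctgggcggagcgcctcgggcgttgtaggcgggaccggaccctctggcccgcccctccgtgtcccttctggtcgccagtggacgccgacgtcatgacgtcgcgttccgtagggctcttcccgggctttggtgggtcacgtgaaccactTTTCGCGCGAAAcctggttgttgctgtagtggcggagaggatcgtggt
MCM6: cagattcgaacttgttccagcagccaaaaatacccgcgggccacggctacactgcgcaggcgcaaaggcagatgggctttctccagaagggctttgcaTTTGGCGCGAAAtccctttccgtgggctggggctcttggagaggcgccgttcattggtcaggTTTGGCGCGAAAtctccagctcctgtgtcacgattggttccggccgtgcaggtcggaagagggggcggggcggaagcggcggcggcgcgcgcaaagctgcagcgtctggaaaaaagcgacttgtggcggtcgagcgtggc
MCM7: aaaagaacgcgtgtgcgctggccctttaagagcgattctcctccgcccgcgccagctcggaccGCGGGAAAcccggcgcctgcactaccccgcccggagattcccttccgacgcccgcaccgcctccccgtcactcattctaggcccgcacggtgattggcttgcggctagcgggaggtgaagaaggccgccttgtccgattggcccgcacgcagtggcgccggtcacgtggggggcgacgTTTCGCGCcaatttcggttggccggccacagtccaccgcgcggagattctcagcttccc
CDC25A: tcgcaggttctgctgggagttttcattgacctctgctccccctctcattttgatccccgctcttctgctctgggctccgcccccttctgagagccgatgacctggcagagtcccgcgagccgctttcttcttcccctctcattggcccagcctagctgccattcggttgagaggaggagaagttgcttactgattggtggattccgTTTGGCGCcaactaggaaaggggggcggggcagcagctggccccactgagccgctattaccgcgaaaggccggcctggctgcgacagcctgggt
ORC5: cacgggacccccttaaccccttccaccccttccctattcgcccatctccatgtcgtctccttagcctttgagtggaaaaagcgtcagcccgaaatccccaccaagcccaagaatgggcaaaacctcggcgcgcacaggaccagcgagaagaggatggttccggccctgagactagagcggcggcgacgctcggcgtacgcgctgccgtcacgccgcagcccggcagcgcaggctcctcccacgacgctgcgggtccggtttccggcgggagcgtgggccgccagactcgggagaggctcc
The letters on opposite strands overlap to form 1 run in MCM2, whose first base lies at 2 from the transcription start, and 2 runs in MCM6, at -152 and -90. MCM7 holds them at -187 and -9, and CDC25A at -44. RefSeq promoters were at hand for 48 of the 54 members, and 26 of those 48 (54.2%) held an E2F sequence in at least 1 listed promoter. Several promoters were listed for 13 members. Counted the same way, the share was 5.72% of the 13456 protein-coding genes measured and 3.99% of all 27305 genes with a promoter. Among members it was 6 of 10 for genes higher in PC9/gef, 6 of 12 for genes lower and 14 of 26 for genes that did not pass the test described below. These shares are counts of letters and were not tested against each other.

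Values are log2 signals of a probe set, the group of probes that reads a transcript. A gene was read from its brightest probe set, a difference is PC9/gef minus PC9, and a gene passed when its limma p, adjusted by Benjamini-Hochberg over all 19775 genes, was under 0.05. The background level, set from olfactory receptor genes, was a log2 signal of 2.61.

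Array 2 of PC9/gef behaved differently from the rest when left out. Of all 19775 genes, 2854 were higher and 3382 lower with every array, 2584 and 4311 without that one, and 2190 to 2228 and 2045 to 2395 without any other single array. These counts include genes at background. Above that level, 2849 were higher and 2656 lower with every array. Whether the rise to 4311 lies among genes above background was not examined. Without array 2 of PC9/gef 11 members were higher and 12 lower, against 12 and 13 with it, and 22 mitosis genes were lower in either case. Arrays of one line still correlated at 0.999 or more, arrays of different lines at up to 0.994, and all 6 had the same median. Of epithelial markers 7 of 9 exceeded background, with EPCAM near 14.5 in both lines, while the lung lineage genes NKX2-1 and NAPSA were at background. The summed log2 level of the epithelial list was 92.7 on every PC9 array and 92.7 to 93.0 on the PC9/gef arrays. Of fibroblast markers, 2 of 9 exceeded background, with sums of 27.4 to 27.8 and 28.0 to 28.1, and of leukocyte markers 3 of 8, with sums of 26.5 to 27.0 and 26.5 to 27.8. COL1A1 (0.52), ITGAM (1.16) and LYZ (-1.09) passed in the fibroblast and leukocyte lists. In each of these 2 lists 1 more marker exceeded background and did not pass. PTPRC, CD3E, COL1A2 and DCN were among those at background. The part of the markers above background in the results was not tested.

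The lines differed widely: of the 12081 genes above the background level, 23.6% were higher in PC9/gef, 22% were lower and 45.6% passed in either direction. All 54 members lay above that level. Of them, 12 were higher (22.2%), 13 were lower (24.1%) and 29 did not pass, so the share of members passing, 46.3%, was near that of all expressed genes. The 3 arrays of one line lay wholly above or below the other 3 for 33 members (61.1%), against 65.1% of expressed genes. In bulk RNA, fewer cells in a state that makes a transcript and less of it per cell cannot be told apart.

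**Figure D1:**
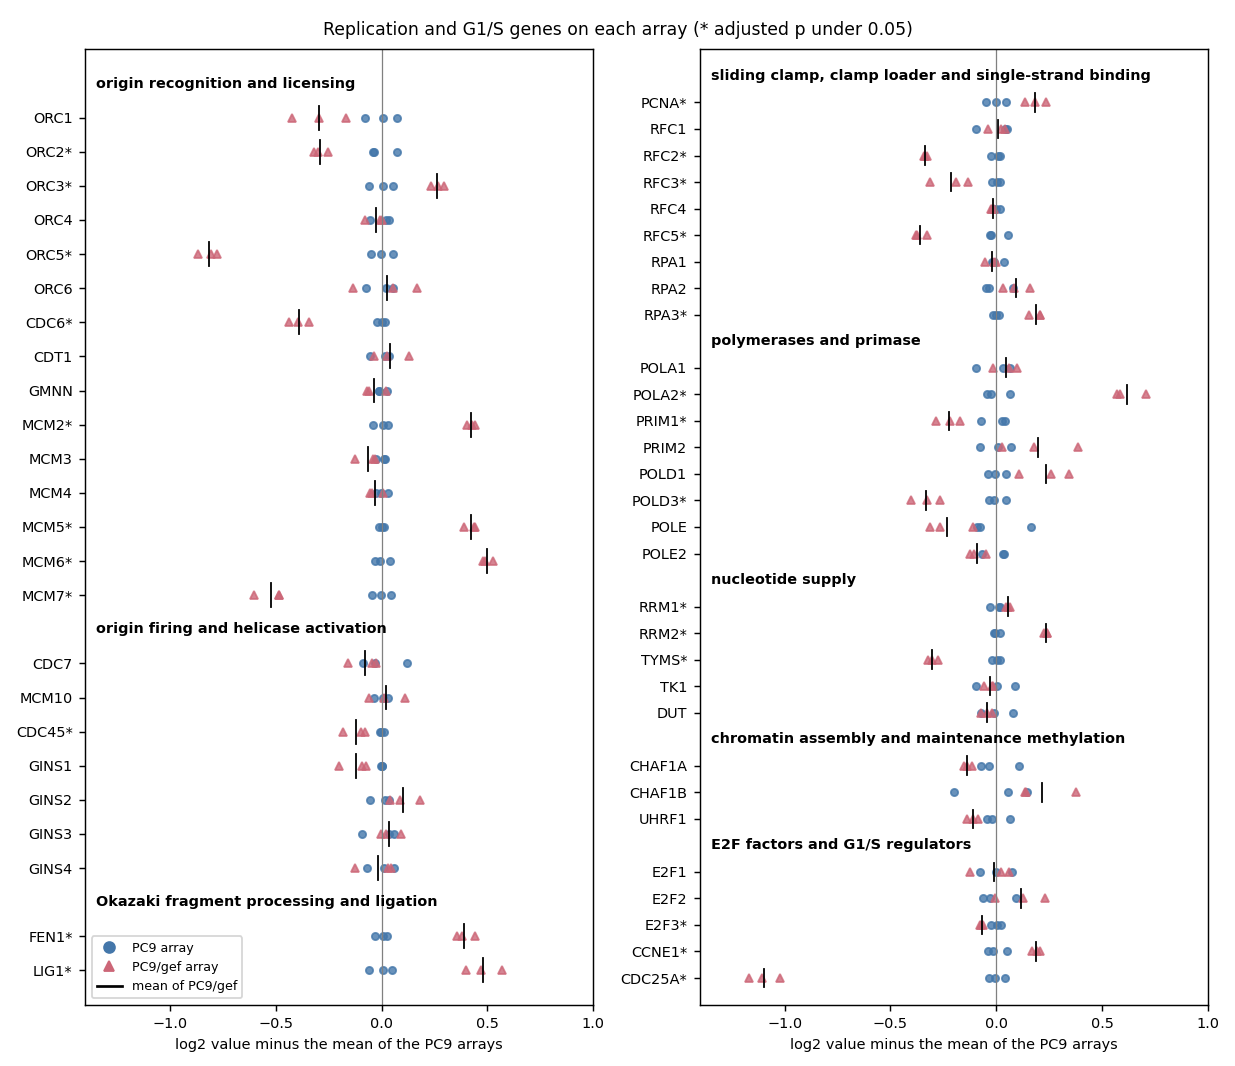
Log2 value of each of the 54 members on each array, minus the mean of the 3 PC9 arrays, by role (circles PC9, triangles PC9/gef, bar the PC9/gef mean, star an adjusted p under 0.05). Licensing, clamp and polymerase genes lie on both sides of 0, and CDC25A at -1.10 and ORC5 at -0.82 lie farthest from it.

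The differences were small. Only 3 members passed and exceeded 1.5-fold, CDC25A, ORC5 and POLA2, which is 5.56% of members where 12.9% of expressed genes did so, and CDC25A alone exceeded 2-fold. The median difference of the 54 was -0.02 against -0.0091 for all expressed genes, and 30 of the 54 lay below 0. Their median absolute difference was 0.16 against 0.18. Tested against a minimum change of 1.2-fold, 5 members were higher and 5 lower. The smallest difference that passed was 1.04-fold (RRM1). For the 29 members that did not pass, the 95% confidence intervals reached no farther than 0.55 from 0 on the log2 scale.

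The helicase subunits went in different directions. The 6 MCM proteins form 1 ring, yet MCM2, MCM5 and MCM6 were higher in PC9/gef, MCM7 was lower, and MCM3 and MCM4 did not pass. MCM6 read 10.77, 10.81 and 10.74 on the PC9 arrays and 11.25, 11.30 and 11.26 on the PC9/gef arrays, a rise of 0.50 ± 0.024 (SE; 1.41-fold, adjusted p = 0.000427). MCM2 read 10.43, 10.36 and 10.40 on the PC9 arrays and 10.80, 10.82 and 10.84 on the PC9/gef arrays, a rise of 0.42 ± 0.023 (adjusted p = 0.000564). For both genes every PC9/gef array was above every PC9 array. MCM5, given here to complete the ring, read 9.70, 9.68 and 9.71 on the PC9 arrays and 10.14, 10.13 and 10.08 on the PC9/gef arrays (a rise of 0.42 ± 0.017, adjusted p = 0.000306). MCM7 read 10.08, 10.12 and 10.03 on the PC9 arrays and 9.47, 9.59 and 9.59 on the PC9/gef arrays. It fell by 0.52 ± 0.045 (SE; 1.44-fold, adjusted p = 0.00197), again with no overlap of the lines. The MCM3 difference was -0.066, with a 95% confidence interval from -0.15 to 0.02, and that of MCM4 was -0.031, from -0.10 to 0.034. Both intervals exclude differences of the size seen in the other 4 subunits.

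**Figure D2:**
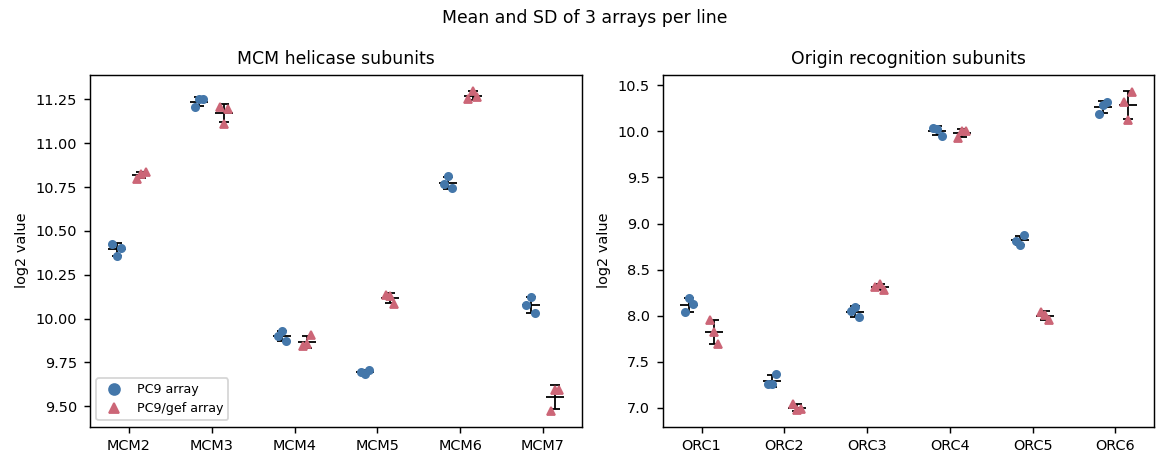
Log2 value on each array (circles PC9, triangles PC9/gef) with the mean and SD of 3 arrays for the 6 MCM and 6 ORC subunits. The height of one gene's points cannot be set against another's, since each is read by its own probes. MCM2, MCM5, MCM6 and ORC3 are higher in PC9/gef, MCM7, ORC2 and ORC5 lower.

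The origin recognition complex was likewise mixed. ORC5 read 8.81, 8.77 and 8.87 on the PC9 arrays and 8.04, 8.01 and 7.95 on the PC9/gef arrays. It fell by 0.82 ± 0.039 (SE; 1.76-fold, adjusted p = 0.000407), the second largest change among the members. ORC2 fell by 0.29 ± 0.04 (adjusted p = 0.00823), whereas ORC3 rose by 0.26 ± 0.036 (adjusted p = 0.00825). ORC1, the ATPase subunit that varies most over the cell cycle, was the clearest exception: it read 8.04, 8.19 and 8.12 on the PC9 arrays and 7.95, 7.82 and 7.69 on the PC9/gef arrays, without overlap, and did not pass (difference -0.30, adjusted p = 0.0542, or 0.0446 without array 1 of PC9/gef). ORC4 (-0.027) and ORC6 (0.027) did not pass. The ORC3 gene span overlaps AKIRIN2, that of MCM7 overlaps AP4M1 and that of ORC1 overlaps PRPF38A. Whether their probes lie in the overlap was not examined.

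Of the factors that load the ring, CDC6 fell from a mean of 9.49 to 9.10, by 0.39 ± 0.028 (adjusted p = 0.00119). Its partner CDT1 differed by 0.039 (95% confidence interval -0.10 to 0.18) and the CDT1 inhibitor GMNN by -0.036 (-0.11 to 0.042). Neither passed. Over the 15 licensing genes, 4 were higher (26.7%), 4 were lower (26.7%) and 7 did not pass, with a median difference of -0.031. These shares are near those of all expressed genes, 23.6% higher and 22% lower.

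Origin firing genes differed little. Of 7, CDC45 alone passed (14.3%, where 45.6% of expressed genes did). This helicase partner read 8.05, 8.07 and 8.05 on the PC9 arrays and 7.96, 7.88 and 7.98 on the PC9/gef arrays and fell by 0.12 ± 0.031 (adjusted p = 0.049). The call was lost without array 1, 2 or 3 of PC9 or array 1 or 3 of PC9/gef, with adjusted p between 0.0633 and 0.144. GINS1 came next at -0.12 (adjusted p = 0.0727, or 0.00881 without array 2 of PC9/gef), while GINS2, GINS3, GINS4, MCM10 and CDC7 lay between -0.077 and 0.10. The median of the 7 was -0.015.

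At the fork, the clamp and its loader did not move together. PCNA, the sliding clamp, rose by 0.18 ± 0.038 from a mean of 12.79 (adjusted p = 0.0278), although leaving out array 1 or 3 of PC9 or array 1 or 3 of PC9/gef gave adjusted p between 0.0679 and 0.0897. In the RFC complex that loads it, 3 of 5 subunits were lower, where 22% of expressed genes were. RFC5 read 10.05, 10.06 and 10.13 on the PC9 arrays and 9.75, 9.70 and 9.71 on the PC9/gef arrays, a fall of 0.36 ± 0.03 (adjusted p = 0.00185). RFC2 read 10.89, 10.85 and 10.88 on the PC9 arrays and 10.54, 10.54 and 10.53 on the PC9/gef arrays, a fall of 0.33 ± 0.013 (adjusted p = 0.000285). RFC3 read 10.48, 10.47 and 10.45 on the PC9 arrays and 10.33, 10.28 and 10.15 on the PC9/gef arrays and fell by 0.21 ± 0.051 (adjusted p = 0.0413), with the PC9/gef arrays more spread than the PC9 ones. That call was lost without any one PC9 array or without array 2 of PC9/gef (adjusted p between 0.0779 and 0.129). The large subunit RFC1 (0.0085) and RFC4 (-0.017, 95% confidence interval -0.041 to 0.0074) did not pass. The gene span of RFC5 overlaps WSB2. Another RFC5 probe set, at a mean of 9.45, differed by -0.014 and did not pass.

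Replication protein A coats single-stranded DNA. Its small subunit RPA3 read 12.69, 12.72 and 12.71 on the PC9 arrays and 12.86, 12.91 and 12.91 on the PC9/gef arrays, a rise of 0.19 ± 0.019 (adjusted p = 0.00299), while RPA1 (-0.022) and RPA2 (0.092) did not pass. A second RPA1 probe set fell by 0.15, as given below. Across clamp, loader and RPA, 2 of 9 genes were higher (22.2%) and 3 lower (33.3%), with a median of -0.017. Of all expressed genes, 23.6% were higher and 22% lower.

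POLA2, the accessory subunit of the polymerase alpha-primase that lays down primers, had the largest rise of all members. It read 7.55, 7.64 and 7.53 on the PC9 arrays and 8.15, 8.28 and 8.16 on the PC9/gef arrays, a rise of 0.62 ± 0.052 (SE; 1.54-fold, adjusted p = 0.00186). The 3 PC9/gef arrays all lay above the PC9 arrays, but without array 2 of PC9/gef the change no longer exceeded 1.5-fold. The catalytic subunit POLA1 differed by 0.048 (-0.11 to 0.20) and did not pass. PRIM1, the catalytic primase subunit, read 9.93, 9.82 and 9.92 on the PC9 arrays and 9.67, 9.72 and 9.61 on the PC9/gef arrays and fell by 0.22 ± 0.047 (adjusted p = 0.0281). Its adjusted p lay between 0.0777 and 0.0922 without array 1 or 3 of PC9 or array 1 or 3 of PC9/gef.

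In polymerase delta, the subunit POLD3 read 9.21, 9.24 and 9.29 on the PC9 arrays and 8.92, 8.98 and 8.85 on the PC9/gef arrays, a fall of 0.33 ± 0.044 (adjusted p = 0.00727). The catalytic subunit POLD1 had values higher on every PC9/gef array and did not pass (0.24, adjusted p = 0.0662, or 0.0253 without array 1 of PC9/gef). The polymerase epsilon genes POLE (-0.23) and POLE2 (-0.091) and the primase subunit PRIM2 (0.20) did not pass. Polymerase and primase genes gave 1 higher (12.5%) and 2 lower (25%) of 8, with a median of -0.022. Of all expressed genes, 23.6% were higher and 22% lower.

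Both genes of lagging-strand maturation rose. FEN1, the nuclease that trims the flaps of Okazaki fragments, read 11.82, 11.78 and 11.84 on the PC9 arrays and 12.19, 12.17 and 12.25 on the PC9/gef arrays, a rise of 0.39 ± 0.029 (adjusted p = 0.00128). LIG1, the ligase that seals them, read 8.21, 8.28 and 8.33 on the PC9 arrays and 8.85, 8.75 and 8.67 on the PC9/gef arrays, a rise of 0.48 ± 0.057 (adjusted p = 0.00512). Neither gene had an array of one line within the range of the other. The LIG1 call was lost in limma with the replicate number as a block (adjusted p = 0.0692) and against a minimum change of 1.2-fold (adjusted p = 0.0733).

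Enzymes of nucleotide supply depended on the probe set read. TYMS read 12.65, 12.62 and 12.66 on the PC9 arrays and 12.34, 12.37 and 12.32 on the PC9/gef arrays, a fall of 0.30 ± 0.017 (adjusted p = 0.000628), and its locus overlaps ENOSF1. RRM2, the reductase subunit that accumulates in S phase, read 13.12, 13.10 and 13.09 on the PC9 arrays and 13.34, 13.33 and 13.34 on the PC9/gef arrays, a rise of 0.23 ± 0.0094 (adjusted p = 0.000288). The large subunit RRM1 read 11.86, 11.82 and 11.86 on the PC9 arrays and 11.91, 11.90 and 11.89 on the PC9/gef arrays and rose by 0.055 ± 0.014 (adjusted p = 0.0489), but leaving out array 1 or 3 of PC9 or any one array of PC9/gef ended that call (adjusted p between 0.0786 and 0.134). A second probe set of each reductase gene fell, by 0.19 in both, as both TYMS probe sets above background did. With the probe sets of a gene averaged, the RRM2 call was lost (0.021, adjusted p = 0.362 in limma) and RRM1 reversed to -0.069 (adjusted p = 0.0341). The salvage kinase TK1 (-0.031) and the dUTPase DUT (-0.045) did not pass, and the 5 genes had a median of -0.031.

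The 3 genes that rebuild chromatin behind the fork did not pass. UHRF1, which guides maintenance DNA methylation, was at -0.11 (adjusted p = 0.0735), with every PC9/gef array below every PC9 array. The chromatin assembly factor subunits CHAF1A and CHAF1B were at -0.14 and 0.22, and CHAF1B had the widest interval of the 29 (-0.12 to 0.55).

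CDC25A, the phosphatase that activates CDK2 at the G1/S border, had the largest change of all 54. It read 9.06, 9.10 and 9.03 on the PC9 arrays and 7.95, 7.89 and 8.04 on the PC9/gef arrays. This is a fall of 1.10 ± 0.046 (SE; 2.14-fold, adjusted p = 0.000318). Cyclin E1 went the other way: CCNE1 read 9.51, 9.49 and 9.58 on the PC9 arrays and 9.70, 9.72 and 9.74 on the PC9/gef arrays, a rise of 0.19 ± 0.028 (adjusted p = 0.0105). The activating factor E2F3 read 9.01, 8.96 and 8.99 on the PC9 arrays and 8.93, 8.91 and 8.92 on the PC9/gef arrays and fell by only 0.069 ± 0.013 (adjusted p = 0.0216), a call lost without array 3 of PC9 or any one array of PC9/gef (adjusted p between 0.0578 and 0.0778). E2F1 differed by -0.012 (-0.19 to 0.17) and E2F2 by 0.12 (-0.10 to 0.33), and neither passed. The 5 genes had 1 higher (20%) and 2 lower (40%), with a median of -0.012, where 23.6% and 22% of expressed genes were.

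A second probe set gives another reading of the same gene on the same arrays. The members had 105 probe sets of their own, of which 90 lay above background and 15 did not. With p adjusted over all probe sets, 13 of the 90 were higher (14.4%) and 25 lower (27.8%), where 16.1% and 16.3% of the 25798 probe sets above background were. The 2 sets are unlike. The 25798 were not limited to probe sets that name 1 gene, and a member with several probe sets counts more than once among the 90. By gene, 24.1% of members were lower, against 22% of expressed genes. Of 29 members with 2 or more such probe sets, 8 passed in the same direction in all of them: ORC2, CDC6, MCM5, MCM7, RFC2, FEN1, TYMS and CDC25A. Leaving out any one array other than array 2 of PC9/gef ended the call of the second probe set for at least 1 of ORC2, MCM5, MCM7, RFC2 and FEN1 (adjusted p between 0.0502 and 0.1075). The second CDC25A probe set fell by 1.73 and the second CDC6 one by 0.45. ORC5 fell by 1.16 in its second probe set, and the remaining, dim one (-0.76) did not pass.

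Other genes read differently by probe set. RRM2 was the single member with calls in opposite directions, 0.23 in its brightest probe set (adjusted p = 0.000551) and -0.19 in the other (adjusted p = 0.0166). The latter read 12.70, 12.65 and 12.66 on the PC9 arrays and 12.45, 12.53 and 12.46 on the PC9/gef arrays. Its call was lost without any one PC9 array or without array 1 or 3 of PC9/gef (adjusted p between 0.0555 and 0.0697). RRM1 also split by sign, at 0.055 (adjusted p = 0.0699 over probe sets) and -0.19 (adjusted p = 0.0322, lost without any one array other than array 2 of PC9/gef, with values between 0.0586 and 0.116). In ORC4 and DUT the brightest probe set did not pass, whereas a dimmer one fell by 0.62 (adjusted p = 0.0336) and 0.44 (adjusted p = 0.00931). The ORC4 call was lost without any one array other than array 1 of PC9/gef, with adjusted p between 0.0557 and 0.118. RFC5 fell in 2 of its 3 probe sets, by 0.36 and 0.58 (adjusted p = 0.00324 and 0.0027). The remaining one, at a mean of 9.45, differed by -0.014 (adjusted p = 0.70). A second RPA1 probe set fell by 0.15 (adjusted p = 0.0175). That call was lost without array 1 or 2 of PC9 or array 1 or 3 of PC9/gef (adjusted p between 0.0503 and 0.0728). POLA2, read from a probe set whose name ends in _s_at (probes that can match several transcripts), rose by just 0.071 in its second one, which was near background at a mean of 3.25. In all, 11 of the 29 had some probe sets pass and others not, and 9 had none pass.

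**Figure D3:**
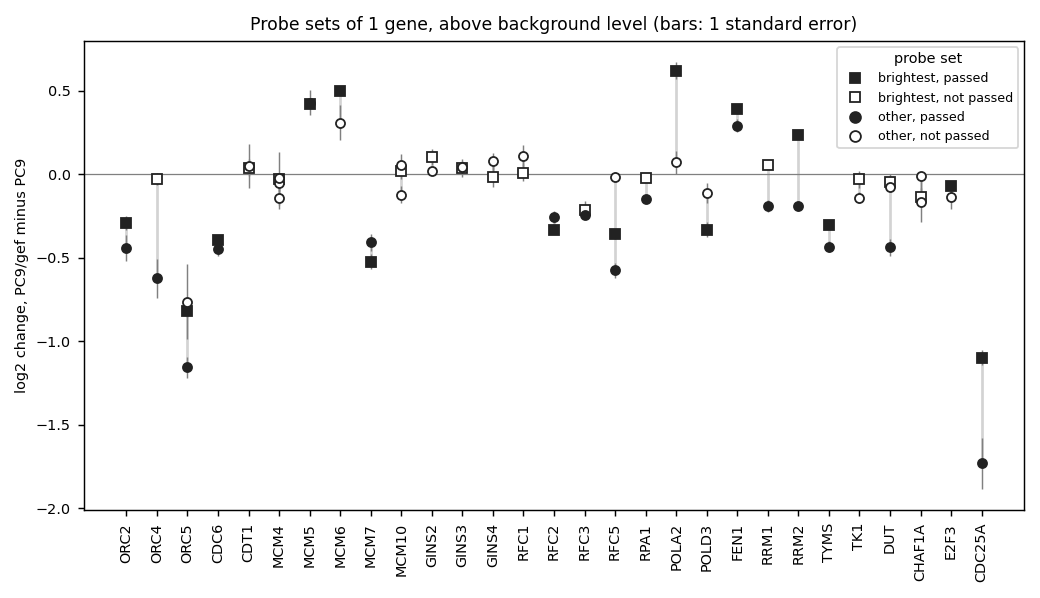
Log2 difference of every probe set above background for the 29 members with 2 or more (squares the brightest, circles the others, filled where the adjusted p over all probe sets is under 0.05, bars 1 standard error). Both CDC25A probe sets lie below -1, while those of RRM2, RRM1, ORC4, DUT, RFC5 and POLA2 lie apart from each other.

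Some members lay in stretches of the genome where neighbouring genes differed the same way. On chromosome 3, the 20 nearest expressed genes around CDC25A (10 on each side, SETD2 to UQCRC1) had a median difference of -0.48, with 14 that fell and 19 differences below 0. Around ORC5 on chromosome 7 (ORAI2 to NAMPT) the median was -0.43, with 14 that fell and 18 differences below 0. Around MCM7, elsewhere on chromosome 7 (ZKSCAN5 to PILRA), it was -0.26, with 9 lower and 1 higher. On the rising side, the neighbours of MCM2 on chromosome 3 (SNX4 to RAB7A) had a median of 0.27, with 10 that rose, and those of POLA2 on chromosome 11 (SNX15 to MAP3K11) 0.17, with 8 that rose. The POLA2 median was 0.055 over the 5 nearest genes on each side.

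For MCM6 on chromosome 2 the pattern was local: 9 of the 10 nearest genes (CCNT2 to QTMAN) were higher, with a median of 0.33, against 0.10 over 20. Over all 25 members that passed, the neighbour median had the member's own sign for 19, counting medians near 0 such as that of FEN1. The same share was not computed for other expressed genes, so 19 of 25 cannot be called particular to the members. Other members moved without such neighbours. The medians were 0.0077 around CDC6, which fell, 0.0015 around FEN1 and -0.035 around LIG1, which both rose. DNA copy number was not measured, and the part of gene position in these differences was not tested.

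**Figure D4:**
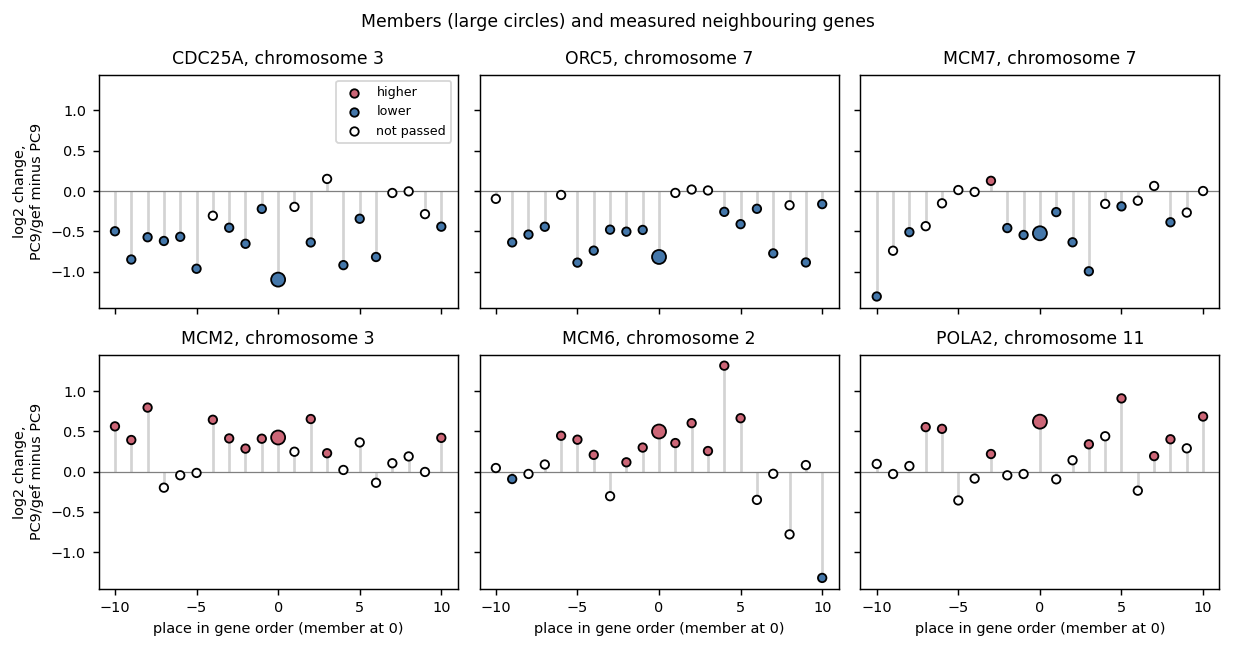
Log2 difference of 6 members (large circles, at place 0) and of the 10 nearest expressed genes on each side in gene order (red higher and blue lower where passed, white not passed). Neighbours of CDC25A and ORC5 lie mostly below 0 and those of MCM2 mostly above it.

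Further genes of these pathways, in lists chosen like the members, also passed in both directions. Their counts stand beside the shares of all expressed genes, 23.6% higher and 22% lower. Of 35 other replication genes, 12 were higher (34.3%), 8 lower (22.9%) and 15 did not pass (median -0.014). Without array 3 of PC9 or array 1 of PC9/gef the number lower was 5. DBF4, the activator of the CDC7 kinase, fell by 0.69 (adjusted p = 0.000837) and ASF1A, a histone chaperone, by 0.42 (adjusted p = 0.00291). TOPBP1, which helps load CDC45 and activates the ATR kinase, rose by 0.64 (adjusted p = 0.0011), and RNASEH2B, a subunit of ribonuclease H2, by 0.58 (adjusted p = 0.000719).

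In the 21 other nucleotide genes above background, 5 were higher and 8 lower (median 0.025), which is 22.7% and 36.4% of the 22 measured. The number higher was 3 and the number lower 4 without array 1, 2 or 3 of PC9 or array 3 of PC9/gef, and the number lower was 5 without array 1 of PC9/gef. IMPDH1 and IMPDH2, which carry out the first committed step to guanine nucleotides, fell by 0.76 (adjusted p = 0.00038) and 0.71 (adjusted p = 0.000301). The salvage kinases TK2 (0.45, adjusted p = 0.013) and DCK (0.35, adjusted p = 0.0147) rose. The TK2 call was lost without array 1 or 3 of PC9 or array 3 of PC9/gef (adjusted p between 0.0502 and 0.0545), and the DCK call without array 3 of PC9 or array 3 of PC9/gef (0.0582 and 0.0597).

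Of 19 further E2F and RB family genes above background, 9 were higher and 4 lower (median 0.17), which is 45% and 20% of the 20 measured. RB1, the retinoblastoma protein, rose by 0.54 (adjusted p = 0.00339). The E2F partners diverged, with TFDP2 up by 0.74 (adjusted p = 0.000658) and TFDP1 down by 0.49 (adjusted p = 0.000301). CCNE2, the second E cyclin, rose by 0.64 (adjusted p = 0.024), a call lost without any one array other than array 2 of PC9/gef (adjusted p between 0.0581 and 0.0806). The number higher in this list was 4 without array 1, 2 or 3 of PC9 or array 1 of PC9/gef, and 5 without array 3 of PC9/gef, while the number lower was 2 without array 1 or 3 of PC9 or array 1 or 3 of PC9/gef.

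The 14 replication checkpoint genes gave 4 higher (28.6%) and 4 lower (28.6%), with a median of 0.032. They share 4 genes with the other replication genes (TOPBP1, TIPIN and TIMELESS, higher, and CLSPN, lower), so 3 of the 4 higher and 1 of the 4 lower were already counted there. The checkpoint kinase CHEK1 fell by 0.71 (adjusted p = 0.0034) and the phosphatase CDC25B by 0.57 (adjusted p = 0.00071), while ATR rose by 0.44 (adjusted p = 0.00672). With the replicate number as a block in limma, the CHEK1 and ATR calls were lost (adjusted p = 0.0502 and 0.0638).

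Genes of the next phase read otherwise. Of 30 mitosis genes, a list also chosen with earlier results known, 22 were lower (73.3%) and 8 did not pass. Of all expressed genes, 22% were lower. All 30 differences of the mitosis genes were below 0 (median -0.32). The number lower was 14 when probe sets with an _x_at or _s_at name were dropped and 11 against a minimum change of 1.2-fold. PLK1, a mitotic kinase, fell by 1.08 (adjusted p = 0.00276), CENPA, the centromeric histone, by 0.73 (adjusted p = 0.00136), MKI67 by 0.70 (adjusted p = 0.000713) and KIF20A, a kinesin of cytokinesis, by 0.62 (adjusted p = 0.000382). The difference between this list and the replication genes was not tested. Promoters of the mitosis genes held the cell cycle homology letters TTTGAA in 17 of 24 genes (70.8%) and E2F letters in 2 (8.33%). Of the 48 members with a promoter, 3 (6.25%) held TTTGAA. The share was 15.4% of protein-coding genes measured and 18.2% of all genes with a promoter. CCAAT, the other box searched, stood in 83.3% of the mitosis genes and 58.3% of the members with a promoter. It stood in 42.4% of protein-coding genes measured and 39.7% of all genes with a promoter. Among 9 reference genes often used to scale expression, 2 were higher (22.2%) and 5 lower (55.6%), with a median of -0.088.

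**Figure D5:**
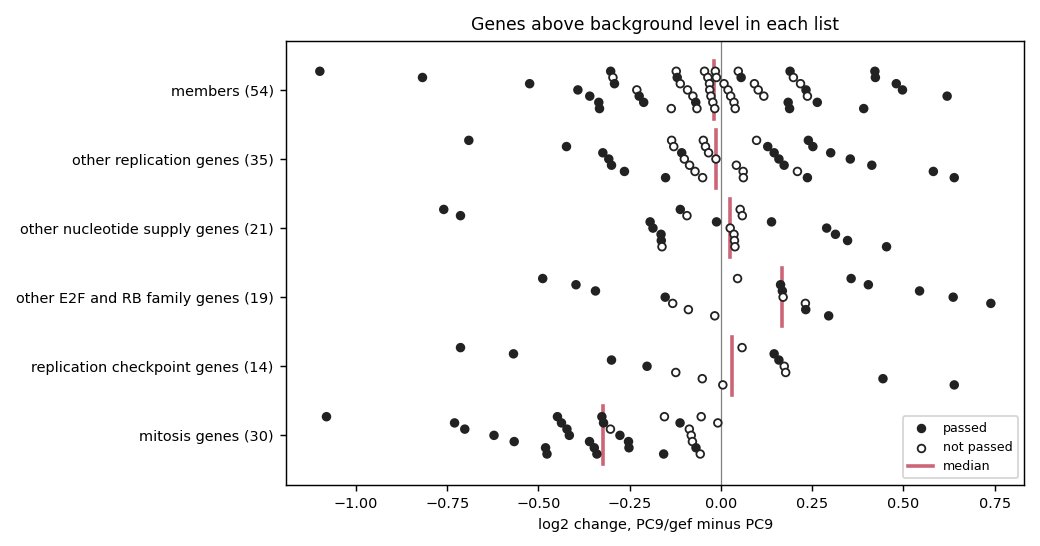
Log2 difference of each gene above background in the members and in 5 related lists (filled passed, open not passed, bar the median of the list). The 30 mitosis genes all lie below 0, while the members lie on both sides with a median of -0.02.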

How the data were processed

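Total RNA of 6 samples was labelled and hybridised, 1 array each, by the authors. The deposited table holds log2 values of 54675 probe sets, made by the authors with RMA per the labels and with GC-RMA in GeneSpring GX per the study's methods, so the background step is not settled. A chemistry-based background model changes dim probe sets most, and these also set the smallest differences that can be seen. No file of raw intensities was used here.

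The 62 control probe sets were left out. Gene names came from the platform's annotation: 41091 probe sets named 1 gene, 1801 several and 11721 none, and 4 probe sets shared by PRIM2 and PRIM2BP were left out. Each gene was read from its brightest probe set. The fit used limma 3.58.1 (lmFit and eBayes, R 4.3.3) over 54613 probe sets with the line as the only term. Adjusted p-values come from this fit, except those given for an array left out or for averaged probe sets, which come from limma refits. With 3 arrays per line the smallest two-sided p of an exact permutation test is 0.1, so limma's test was used throughout. Its prior had only 0.39 degrees of freedom, so it shared little variance between genes. A small change can therefore pass where the 3 arrays happen to lie close together. The number of arrays limits the precision, and the median standard error over members was 0.042. The background level is the 95th percentile of 107 olfactory receptor probe sets. The script was tested on simulated data.

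The members, the other gene lists and the markers were chosen with earlier results of these data known. Values on every array are given for members over 1.5-fold that passed and for up to 4 passing members per role with the largest changes; others are named as exceptions, and MCM5 was added after its values were seen. Of each other list, the 4 passing genes with the largest changes are named. Neighbours follow RefSeq gene order and promoters RefSeq (GRCh38.p14). Figures used matplotlib 3.10.9.

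Alternatives tried were trended and robust moderation, quantile normalization, centring on expressed probe sets, keeping only probe sets above background, a block for the replicate number, omission of each array in turn, averaging the probe sets of a gene, dropping probe sets with an _x_at or _s_at name, a test against 1.2-fold, other background percentiles, and 5 neighbours on each side.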

Additional observations from a re-analysis of the deposited data

How the results depend on the processing

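Quantile normalization and centring on expressed probe sets kept all 25 calls among the members in the same direction. In all, 9 members (CDC6, CDC25A, FEN1, MCM2, MCM5, MCM6, MCM7, ORC5 and RFC2) passed the same way in every one of the 14 other settings that gave them a value. Same-numbered arrays of the lines did not deviate together (correlations of -0.026, 0.015 and 0.048). This cannot exclude a shared culture or day, and the labels do not say whether the numbers pair the samples. With the replicate number as a block, 9 members were higher and 9 lower, and 10 of the members' probe sets were lower where 25 had been. Among the 25 member calls 8 were lost in that fit (ORC2, CDC45, PCNA, RFC3, PRIM1, POLD3, LIG1 and RRM1), and 1 was gained (POLE). With the same block the other replication genes gave 6 higher and 5 lower, the other nucleotide genes 2 higher and 3 lower, the other E2F and RB genes 3 higher, and the checkpoint genes 2 higher and 2 lower. The TK2, CCNE2, CHEK1 and ATR calls were lost with that block (adjusted p between 0.0502 and 0.0873 in limma). When probe sets with an _x_at or _s_at name were dropped, 11 members had no value, 7 members were higher, and 7 of their probe sets were higher and 13 lower. In that setting 4 other replication genes, 1 E2F and RB gene, 2 checkpoint genes and 14 mitosis genes were lower and 3 other nucleotide genes higher. Its medians were -0.29 for licensing, 0.048 for polymerases, -0.17 for nucleotide supply and 0.053 for E2F and G1/S regulators. They were -0.011 for the other nucleotide genes, 0.084 for the checkpoint genes and -0.25 for the mitosis genes. The 0.48 for Okazaki fragment genes was LIG1 alone, since FEN1 had no value. The -0.00033 for chromatin assembly was the value of CHAF1A, read there from a probe set at background. Tested against a minimum change of 1.2-fold, 5 members were higher and 5 lower, 4 and 8 of their probe sets, 2 and 1 of the other replication genes, 0 and 2 of the other nucleotide genes, 2 and 1 of the E2F and RB genes, 1 and 2 of the checkpoint genes, and 11 mitosis genes were lower. When the probe sets of a gene were averaged, 0 members exceeded 2-fold, 5 other E2F and RB genes were higher, the medians were -0.086 for nucleotide supply and 0.084 for the other E2F and RB genes, the RRM2 call was lost (0.021, adjusted p = 0.362 in limma), and RRM1 reversed to -0.069 (adjusted p = 0.0341 in limma). The averages took in probe sets at background, such as the dim one of CDC25A, which differed by -0.061. Averaging also brought RNASEH2B to 0.21, RB1 to 0.27 and CHEK1 to -0.40. It ended the TK2 and CCNE2 calls (adjusted p = 0.0619 and 0.0975 in limma). Against 1.2-fold the ASF1A, TK2, DCK, CCNE2 and ATR calls were lost (adjusted p between 0.0714 and 0.642 in limma). The causes of these shifts were not tested. Leaving out 1 array at a time gave 10 to 12 members higher and 9 to 12 lower, 9 to 13 of their probe sets higher and 17 to 25 lower, and 17 to 22 mitosis genes lower. Other nucleotide genes ranged from 3 to 5 higher and 4 to 7 lower, E2F and RB genes from 4 to 9 higher and 2 to 3 lower, and other replication genes from 5 to 7 lower. The median ranged from -0.078 to 0.014 for nucleotide supply, from -0.050 to 0.043 for E2F and G1/S regulators and from -0.011 to 0.028 for the other nucleotide genes. With 5 neighbours on each side the neighbour median became 0.0089 for ORC2, 0.033 for MCM5, 0.33 for MCM6, 0.11 for PCNA, -0.025 for RFC3, 0.061 for RPA3, 0.055 for POLA2, -0.017 for PRIM1, 0.065 for FEN1, -0.053 for TYMS, 0.13 for E2F3 and 0.24 for CCNE1. The signal over background limits the 15 dim probe sets of members, which could show no difference either way, and no member's main reading rests on one of them.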
